A study of Arabidopsis thaliana with 4 samples.

Results

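The enzymes that make and convert UDP-glucose in the cytosol are described here through 10 Arabidopsis genes, chosen by locus from a table of 37051 loci: the UDP-glucose 4-epimerases UGE1 to UGE5, the UDP-glucose dehydrogenases UGD2 and UGD3, and the sucrose synthases SUS1, SUS3 and SUS4. They were measured by RNA sequencing in funiculi, the stalks that carry the seeds, taken at flower stage 17 from wild-type Columbia and from seedstick (stk) plants. STK encodes a MADS-box factor of ovule identity, and the comparison asks which funiculus transcripts differ when it is mutated. Each genotype had 2 libraries, each from a pool of 100 funiculi, and both genotypes grew at 22 °C with 16 h of light and 8 h of dark. The labels name neither the stk allele nor the background of the mutant, and they call the libraries biological replicates. The genes were picked with the stk against wild-type results in view, so their values in that contrast are a description and support nothing by themselves.

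UDP-glucose is the hub from which a plant cell draws most of the sugar units of its wall. Sucrose synthase splits sucrose into fructose and UDP-glucose, and this reaction is reversible. UGE enzymes interconvert UDP-glucose and UDP-galactose, the donor of galactose for xyloglucan, pectin and arabinogalactan proteins. UGD enzymes oxidise UDP-glucose to UDP-glucuronate, from which UDP-xylose, UDP-arabinose, UDP-apiose and UDP-galacturonate are made for pectin and xylan. The funiculus is the route by which sucrose reaches the seed, and it holds phloem and xylem strands.

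The libraries held 4033589 to 12099218 counts, and the replicates of a genotype were not closely alike. Levels are given as CPM, counts scaled to a common library size with edgeR's TMM factors. On log2 CPM, Pearson's r was 0.753 between the wild-type replicates and 0.777 between the stk replicates. Between genotypes it was 0.878 for the replicate 2 libraries and 0.697 for the replicate 1 libraries. Replicate 2 was the deeper library of each genotype (10229588 and 12099218 counts against 5757066 and 4033589). These correlations are a description over 18092 genes, which are not independent of each other. The mutated gene STK (AT4G09960) was read in every library, at 374 and 555 CPM in wild type against 238 and 326 CPM in stk, so its counts do not check the genotype labels. In bulk tissue, fewer cells of a type and less RNA per cell cannot be told apart. All 10 genes passed the filter on low counts. None passed the edgeR quasi-likelihood test over all genes, where 0.00553% of 18092 genes were called. At an unadjusted p under 0.05 the same test gave 3 of the 10, all higher in stk (UGE1, UGD2 and UGD3), where 2.22% of genes lay past that p in that direction. In the same 3 genes both stk libraries lay above both wild-type libraries, where 15.9% of all tested genes did so. DESeq2 called 1 (UGE1), where it called 0.956% of genes, and limma-voom also called 1 (UGE1), where it called 0.205%. Since the contrast chose the genes, nothing is read from these counts.

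**Figure D1:**
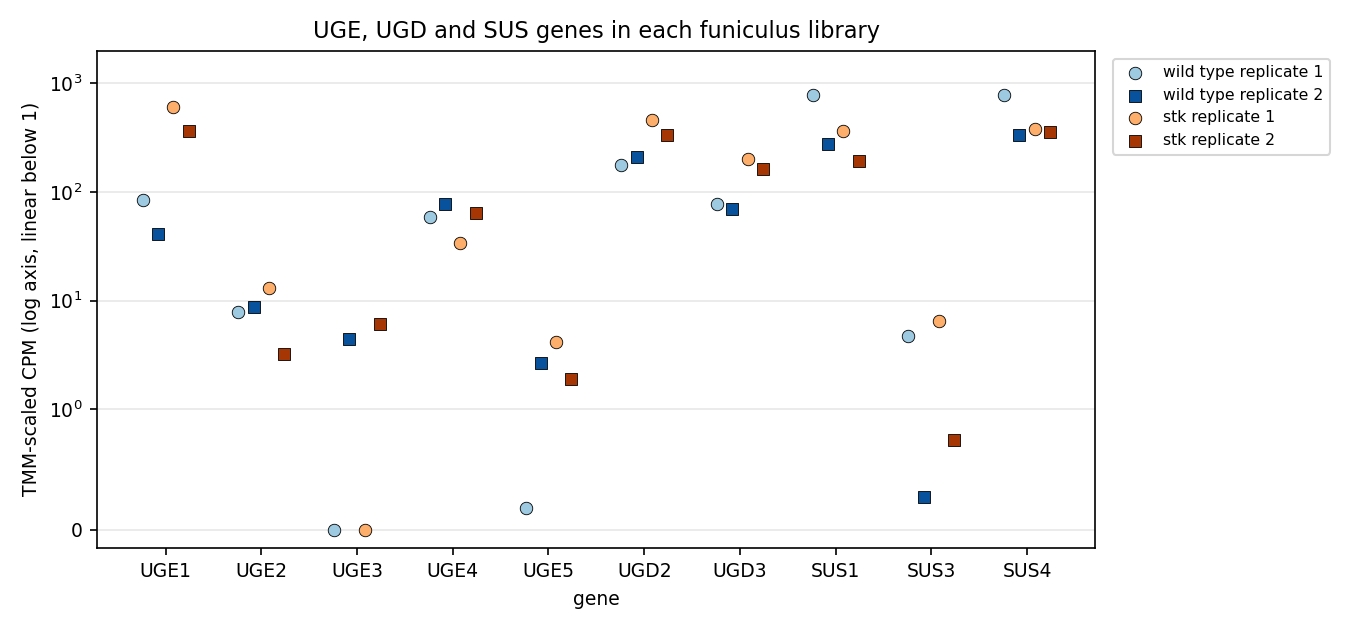
TMM-scaled CPM of the 10 genes in each of the 4 libraries, on a log axis that is linear below 1. Points are single libraries, pale circles for replicate 1 and dark squares for replicate 2. UGE1, UGD2 and UGD3 have both stk points above both wild-type points, and the points of the other 7 genes overlap between genotypes.

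UGE1 (AT1G12780) differed most among the 10 genes. It is a cytosolic epimerase that the reference annotation describes as stress-responsive, and it is also known to interconvert UDP-xylose and UDP-arabinose. The wild-type libraries held 84.2 and 40.9 CPM of UGE1, from 468 and 445 counts, and the stk libraries 608 and 362 CPM, from 2350 and 4399 counts. Both stk values lay above both wild-type values, and replicate 1 was the higher library in each genotype. The means were 62.5 ± 30.7 CPM (SD, n = 2) and 485 ± 174 CPM, 7.76 times as high in stk. The log2 fold change in edgeR was 2.96 ± 0.54 (SE), at percentile 98.1 of all tested genes. Leaving out wild-type replicate 1 gave 3.59 and leaving out wild-type replicate 2 gave 2.53, and the values were 2.56 and 3.28 without stk replicate 1 and stk replicate 2. On the reference annotation UGE1 shares 4 exonic bases with AT1G12775 on the opposite strand, which had 27, 78, 93 and 53 counts in the 4 libraries in the same order. None of the 1979 windows of 50 bases in the longest UGE1 transcript occurs exactly in the longest transcript of another gene, UGE3 included. Matches with mismatches and other transcripts were not searched, so this does not settle whether reads were shared.

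UGE4 (AT1G64440), also known as RHD1, supplies UDP-galactose for wall polymers in the root epidermis. Wild type had 59.0 and 77.0 CPM of UGE4, and stk 33.9 and 63.8 CPM. The ranges overlapped, and stk replicate 1 was the lowest library. Its log2 fold change was -0.47 ± 0.48 (SE), and it lay between -1.01 and -0.07 when any 1 library was left out. UGE1 and UGE4 thus lay closer to each other in wild type than in stk. Per kb of exon, the ratio of UGE1 to UGE4 was 1.06 and 0.394 in wild type, whereas stk had 13.3 and 4.22. This ratio is taken within a library and does not depend on the scaling between libraries.

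The other epimerase genes were read at low levels. UGE2 (AT4G23920), which is known to act with UGE4 in vegetative growth, stood at 7.92 and 8.81 CPM in wild type against 12.9 and 3.21 CPM in stk. The stk libraries lay on either side of the wild-type ones. Of the 1569 windows of 50 bases in its longest transcript, 9 also occur in the pseudogene AT1G36770, so a small part of its reads could be split with that locus. UGE3 (AT1G63180), the closest relative of UGE1, had 48 counts in wild-type replicate 2 and 74 in stk replicate 2, or 4.41 and 6.09 CPM. In both replicate 1 libraries UGE3 had 0 counts, where a count of 0 allows up to 0.540 CPM for the wild-type library and 0.776 CPM for the stk library. UGE3 was thus read in the replicate 2 libraries of both genotypes and in neither replicate 1 library, and no fold is given for it. It shares 4 exonic bases with AT1G63170 on the opposite strand, which had 194, 439, 108 and 496 counts. UGE5 (AT4G10960) stood at 0.180 and 2.66 CPM in wild type, from 1 and 29 counts, and at 4.14 and 1.89 CPM in stk, from 16 and 23 counts. None of these 3 genes had a difference larger than the spread between replicates.

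The make-up of the epimerase family differed between the genotypes. Summed over the 5 genes, UGE transcripts stood at 151 and 134 CPM in wild type against 659 and 437 CPM in stk. UGE1 held 55.6% of all UGE counts in wild-type replicate 1 (exact 95% interval 52.2 to 59.0%) and 30.5% in wild-type replicate 2 (28.2 to 33.0%). In stk it held 92.3% in replicate 1 (91.2 to 93.3%) and 82.8% in replicate 2 (81.8 to 83.8%). The intervals of the wild-type libraries do not reach each other or those of the stk libraries, so the replicates themselves differ by more than counting error. Per kb of exon, UGE4 was the leading epimerase in wild-type replicate 2, with 62.7% of the family, and it held 45.7% in wild-type replicate 1 beside 48.5% for UGE1. In stk, UGE4 held 6.74 and 18.5% per kb.

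**Figure D2:**
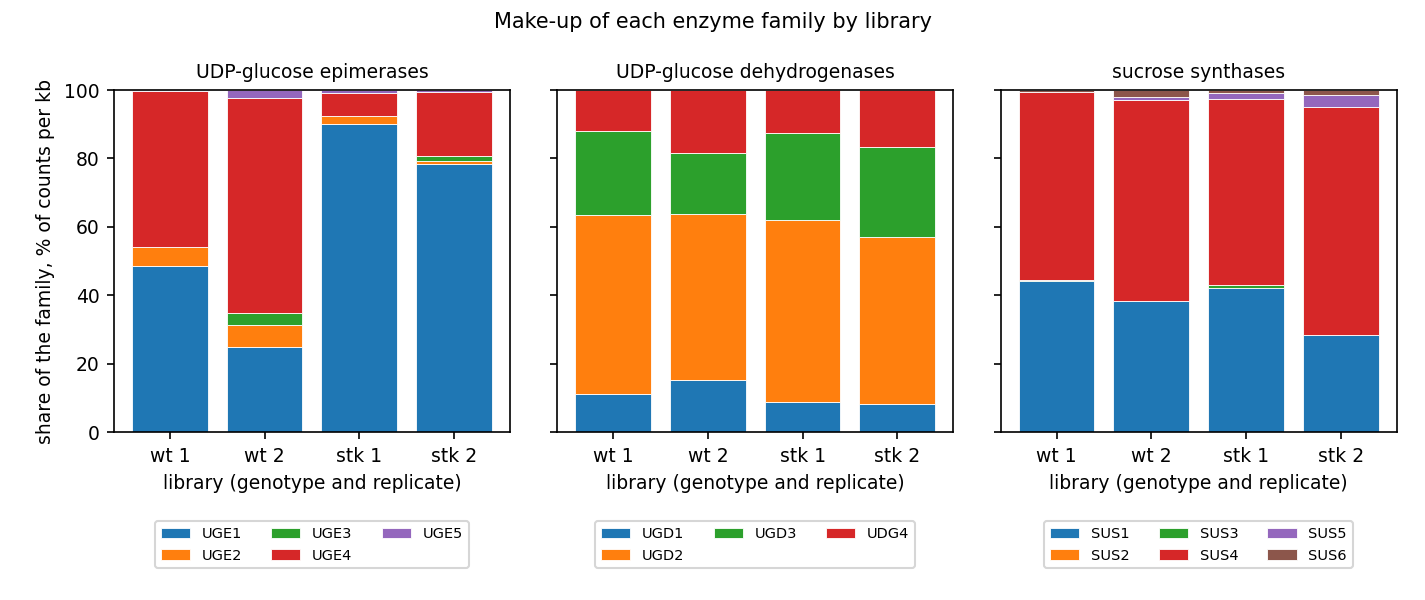
Share of each gene in its family's counts per kb of exon, for the UDP-glucose epimerases, the UDP-glucose dehydrogenases and the sucrose synthases in each library (wt, wild type; the number is the replicate). UGE1 fills 89.9 and 78.3% of the epimerase bars in stk against 48.5 and 24.7% in wild type, and UGD2 is the largest part of the dehydrogenase bars in all 4 libraries.

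UGD2 (AT3G29360) and UGD3 (AT5G15490) encode the dehydrogenases whose joint loss is known to disturb pectin and wall structure in Arabidopsis. UGD2 stood at 178 and 209 CPM in wild type against 456 and 332 CPM in stk. UGD3 stood at 77.0 and 70.1 CPM in wild type against 200 and 163 CPM in stk. For both genes the stk libraries lay above the wild-type libraries, with stk replicate 1 the highest. UGD2 was 2.04 times as high in stk (194 ± 22.1 against 394 ± 87.7 CPM, SD, n = 2), and UGD3 was 2.46 times as high (73.6 ± 4.86 against 181 ± 26.1 CPM). The log2 fold changes were 1.03 ± 0.41 and 1.30 ± 0.40 (SE). They changed less than those of the other members when a library was left out, from 0.80 to 1.23 for UGD2 and from 1.17 to 1.43 for UGD3, lowest without stk replicate 1 in both cases.

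Per kb of exon, UGD2 stood at 2.11 and 2.73 times UGD3 in wild type and 2.09 and 1.87 times in stk. Both stk ratios lay below both wild-type ratios, and stk replicate 1 and wild-type replicate 1 were close to each other. UGD1 (AT1G26570), a relative outside the chosen set, stood at 35.8 and 61.7 CPM in wild type against 71.4 and 52.7 CPM in stk (edgeR adjusted p = 1). The fourth gene, named UDG4 in the reference (AT5G39320), stood at 40.8 and 79.1 CPM in wild type, while stk had 107 and 114 CPM (edgeR adjusted p = 1, log2 fold change 0.88 ± 0.46, SE). UGD2 held 48.7 to 53.3% of the family per kb across the 4 libraries, UGD3 17.9 to 26.2%, UDG4 11.9 to 18.3% and UGD1 8.16 to 15.1%. All 4 genes together summed to 332 and 420 CPM in wild type against 835 and 662 CPM in stk.

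SUS1 (AT5G20830) and SUS4 (AT3G43190) are close relatives, both known to be induced by low oxygen. SUS1 stood at 790 and 278 CPM in wild type against 367 and 192 CPM in stk. SUS4 stood at 783 and 336 CPM in wild type against 378 and 356 CPM in stk. In both genes wild-type replicate 1 stood above the other 3 libraries. Wild-type replicate 2 lay between the stk libraries for SUS1 and below both of them for SUS4. The log2 fold changes were -0.93 ± 0.59 for SUS1 and -0.61 ± 0.49 for SUS4 (SE). Without wild-type replicate 1 they were 0.03 and 0.15, and without wild-type replicate 2 they were -1.49 and -1.08. Neither difference exceeded the spread between replicates. Phloem markers were also high in wild-type replicate 1. The 6 markers, all tested, summed to 2171 and 506 CPM in wild type against 1987 and 939 CPM in stk, none of them was at 0, and their part in the SUS values was not tested.

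SUS4 was the higher of the pair per kb of exon in every library. SUS1 stood at 0.799 and 0.654 of SUS4 in wild type and 0.769 and 0.426 in stk. Together they held 94.7 to 99.2% of the sucrose synthase family per kb. SUS3 (AT4G02280), known for its expression in seeds and under drought, stood at 4.68 and 0.275 CPM in wild type against 6.47 and 0.740 CPM in stk. In each genotype replicate 1 was the higher library, and the values rest on 26, 3, 25 and 9 counts. Among the relatives outside the chosen set, SUS2 (AT5G49190), a seed form, had at most 4 counts in any library and was not tested. SUS5 (AT5G37180) and SUS6 (AT1G73370) are forms of the phloem sieve elements. SUS5 had 0 counts in wild-type replicate 1 and stood at 4.59 CPM in wild-type replicate 2, and at 11.6 and 20.3 CPM in stk (edgeR adjusted p = 1). SUS6 stood at 7.92 and 14.6 CPM in wild type against 8.02 and 9.30 CPM in stk (edgeR adjusted p = 1). Of the 6 phloem markers, 2 had both stk libraries above the wild-type ones, where 15.9% of all tested genes did so. They were the sieve element genes SEOR1 (AT3G01680) and SEOR2 (AT3G01670). SEOR1 stood at 2.70 and 4.96 against 70.9 and 48.4 CPM, and SEOR2 at 37.2 and 28.5 against 175 and 90.4 CPM. Their edgeR adjusted p was 0.329 and 0.635. Their DESeq2 adjusted p was 2.09e-05 and 0.0489, where DESeq2 called 0.956% of all genes. The other 4 overlapped between genotypes, with log2 fold changes of -0.13 for SUC2, -0.38 for APL, 0.06 for PP2-A1 and 0.59 for CALS7.

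**Figure D3:**
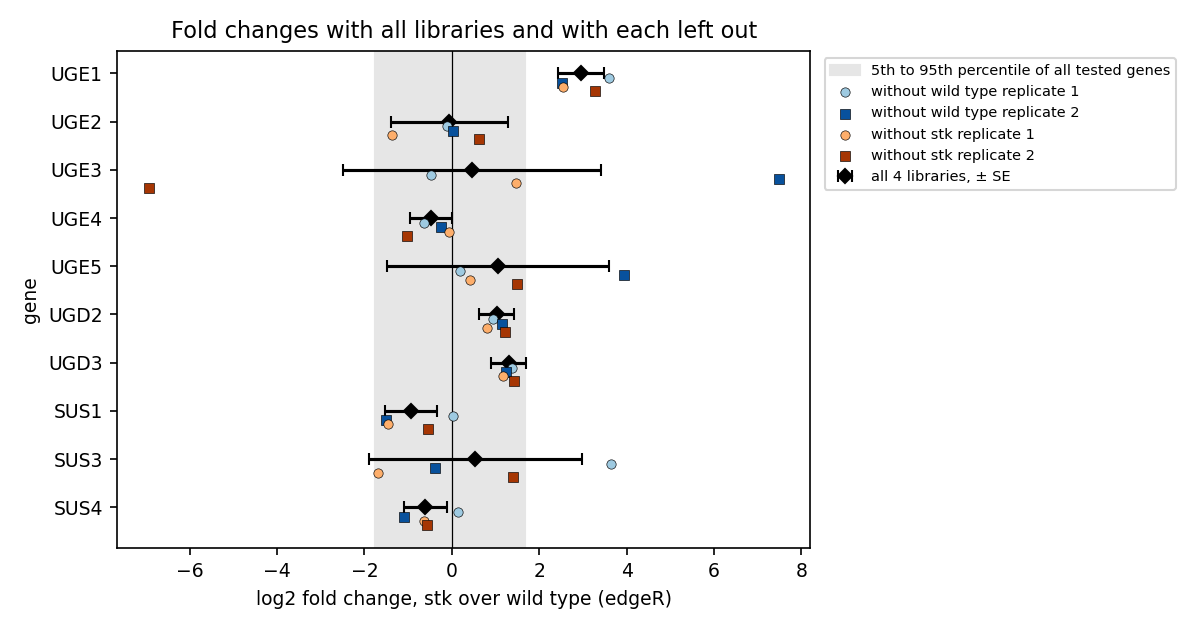
Log2 fold change of each gene in stk over wild type with all 4 libraries (diamonds, ± SE) and with each library left out in turn (coloured points), beside the 5th to 95th percentile of all 18092 tested genes (grey band, -1.76 to 1.68). The band is from the fit with all 4 libraries only, and no band was computed with a library left out. UGE1 stays to the right of this band with any library left out, and UGD2 and UGD3 stay inside it above 0. UGE3 moves to either end of the axis, since leaving out a replicate 2 library leaves that genotype at 0 counts.

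The order of levels per kb of exon differed between the genotypes, with the largest move for UGE1. In wild type SUS4 led at 189.7 ± 107 CPM per kb (SD, n = 2), followed by SUS1 at 143 ± 97.3 and UGD2 at 96.6 ± 11.0. These 3 do not differ beyond their spread. UGE4 (45.1 ± 8.45), UGD3 (40.1 ± 2.65) and UGE1 (30.8 ± 15.1) followed, again within each other's spread. In stk UGE1 led at 239 ± 85.9 CPM per kb, followed by UGD2 at 197 ± 43.7, whose spread reaches that of UGE1. SUS4 (124 ± 5.16), UGD3 (98.8 ± 14.3), SUS1 (75.0 ± 33.3) and UGE4 (32.4 ± 14.0) came next. UGE1 ranked 5th and 6th of the 10 genes in the wild-type libraries and first in both stk libraries. SUS4 ranked first in both wild-type libraries and 3rd in both stk libraries. SUS1 ranked 2nd and 3rd in wild type and 5th in both stk libraries, below UGD3 (4th). UGE2, UGE3, UGE5 and SUS3 were the lowest 4 in every library, at 8.00 CPM per kb or less.

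Other genes around UDP-sugars were read from 13 lists of 98 genes, of which 91 were tested. The lists include genes that use UDP-sugars to build cellulose and xylan, and the low oxygen response, which is not part of the pathway. None of the 91 was called by edgeR. Before adjustment, its p was under 0.05 for 9 that were higher and 1 that was lower in stk. Of all tested genes, 2.22% and 1.14% were so. DESeq2 and limma-voom called 1 each, UXS3 (AT5G59290) in both cases, where they called 0.956% and 0.205% of genes. Of all 91 genes in the lists, 58 had a positive log2 fold change in stk, with a median of 0.34 over the 91, while 45.8% of all tested genes were positive and their median was -0.08.

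UDP-xylose and UDP-apiose synthesis, the steps that consume the UGD product, had positive fold changes in 8 of 8 genes, with a median of 0.85. The stk libraries lay above the wild-type libraries in 7 of them, where 15.9% of all tested genes did so. UXS3 had 92.7 and 89.1 CPM in wild type against 977 and 294 CPM in stk. Its log2 fold change was 2.81 ± 0.61 (SE), with an adjusted p of 0.522 in edgeR, 0.00121 in DESeq2 and 0.0163 in limma-voom. The fold change was 1.72 without stk replicate 1 and 3.42 without stk replicate 2. UXS6 (AT2G28760) stood at 50.9 and 19.6 CPM and at 313 and 90.0 CPM (log2 fold change 2.52; edgeR adjusted p = 0.877), or 1.38 without stk replicate 1. UXS3, UXS5 and UXS6 are the UDP-xylose synthases of the cytosol, and UXS1, UXS2 and UXS4 those of the Golgi. The cytosolic forms had log2 fold changes of 1.52 to 2.81 and the Golgi forms of 0.32 to 0.95, a grouping made after the values were seen. The difference between these forms was not tested.

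The genes nearest to UGE1 across the 4 libraries were taken from the lists and from all tested genes, 5 from each. The list genes are among the tested genes, so their 5 nearest could not lie nearer as a set. Nothing is read from that. How many tested genes lay nearer than these list genes was not counted. By the Euclidean distance between mean-centred log2 CPM profiles over 4 libraries, UXS6 (0.977) and UXS3 (1.07) came first among the list genes. CESA8 (1.67), UXS5 (1.79) and AT2G31390 (1.84), annotated as a pfkB-like carbohydrate kinase, followed. Over all tested genes the closest were the transporter gene ZIFL1 (0.142), BGLU1 (0.352), TBL24 (0.381), AT3G60415 (0.427) and SCPL11 (0.443). Of these 5, SCPL11 stood at 39.9 and 21.6 CPM in wild type against 251 and 227 CPM in stk, and the others at 19.7 CPM or less in every library.

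Genes that feed UDP-glucose or compete for sucrose did not show one direction. Of the pyrophosphorylase genes, UGP2 (AT5G17310), which makes UDP-glucose from glucose 1-phosphate, stood at 74.7 and 56.4 CPM in wild type against 17.1 and 35.1 CPM in stk (edgeR adjusted p = 1). UGP3 (AT3G56040), a chloroplast form, stood at 61.7 and 36.3 CPM against 23.3 and 39.3 CPM. UGP1 (AT3G03250) stood at 208 and 165 CPM in wild type against 292 and 209 CPM in stk (log2 fold change 0.42 ± 0.41, SE). Wild-type replicate 1 (208.4 CPM) and stk replicate 2 (208.9 CPM) were nearly level. USP (AT5G52560), the UDP-sugar pyrophosphorylase, stood at 85.6 and 66.9 CPM against 75.0 and 103 CPM. These 4 genes had a median log2 fold change of -0.21, with 2 positive. The 6 tested genes of sucrose synthesis and neutral invertases had a median of -0.0025, with 3 positive. SPS4F (AT4G10120), a sucrose-phosphate synthase, stood at 444 and 121 CPM and at 134 and 73.2 CPM (log2 fold change -1.45; edgeR adjusted p = 1), and SPS1F (AT5G20280) at 87.3 and 60.8 CPM and at 122 and 100.0 CPM. The hexose phosphate list of 10 genes had a median of 0.18, with 6 positive. AT2G31390 stood at 23.0 and 51.3 CPM in wild type against 167 and 115 CPM in stk (log2 fold change 1.92; edgeR adjusted p = 0.816), and AT5G51830, also annotated as a pfkB-like carbohydrate kinase, at 20.9 and 27.4 CPM against 71.9 and 31.0 CPM.

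**Figure D4:**
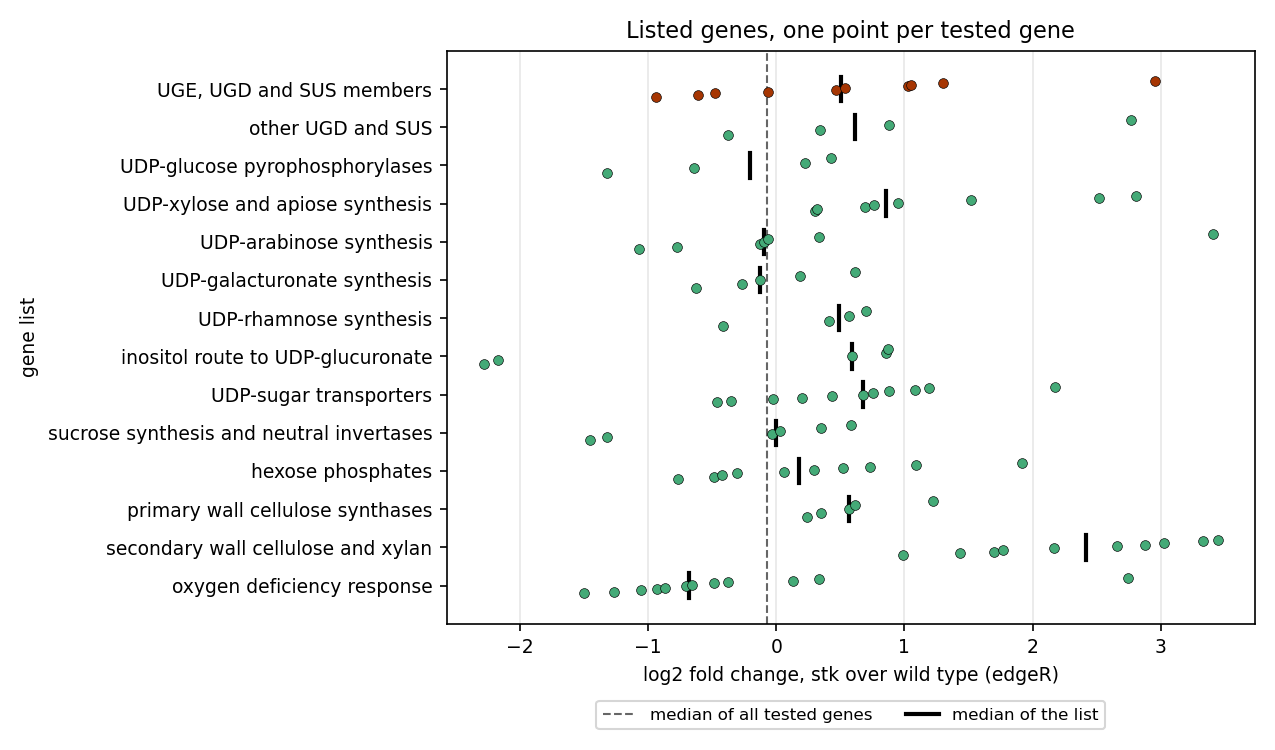
Log2 fold change in stk over wild type of each tested gene, by list, with the median of each list (black bar) and of all tested genes (dashed line, -0.08). The xylose and apiose list and both cellulose lists lie wholly above 0, with medians of 0.85, 0.57 and 2.42, and the sucrose list is centred near 0.

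The lists of other UDP-sugar steps and of transporters had medians below the 0.85 of the xylose and apiose list. Medians were -0.10 over 7 tested genes of UDP-arabinose synthesis, -0.13 over 5 of UDP-galacturonate synthesis and 0.49 over 4 of UDP-rhamnose synthesis. They were 0.59 over 5 of the inositol route to UDP-glucuronate and 0.68 over 11 UDP-sugar transporters. This order did not hold with every library left out. Without wild-type replicate 2 the transporters had a median of 1.31, against 0.98 for xylose and apiose. Without stk replicate 2 the inositol route had 1.12 against 1.07. In the list order, the genes of lowest p were MEE25 and MUR4, GAE5 and GAE3, RHM2 and UER1, GLCAK and MIOX1, and AT2G28315 and AT1G06890, all with an edgeR adjusted p of 1. MEE25 stood at 0 and 1.74 CPM in wild type against 14.5 and 4.94 CPM in stk, and AT2G28315, annotated as a nucleotide-sugar transporter, at 31.5 and 3.40 CPM against 142 and 14.0 CPM.

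Cellulose synthases use UDP-glucose, and none of their genes in the lists was called by edgeR. In the primary wall list the stk libraries lay above the wild-type libraries in 5 of 5 genes, where 15.9% of all tested genes did so. The genes of lowest p were CESA2 (AT4G39350), at 60.5 and 88.2 CPM against 223 and 125 CPM, and CESA3 (AT5G05170), at 321 and 233 CPM against 469 and 381 CPM (edgeR adjusted p = 1 for both). The 10 genes of secondary wall cellulose and xylan had a median of 2.42, which was 0.0030 without stk replicate 1. The genotypes overlapped in 6 of the 10 and stk lay above in 4, where 15.9% of all tested genes did so. CESA8 and IRX9 were among the 4. For all 10, and for UGE1, replicate 1 stood above replicate 2 within each genotype, where 24.3% of all tested genes did so. CESA8 (AT4G18780) stood at 22.0 and 5.69 CPM in wild type against 197 and 26.2 CPM in stk, and IRX9 (AT2G37090), of the xylan backbone, at 12.8 and 1.65 CPM against 138 and 17.2 CPM (edgeR adjusted p = 1 for both). The 6 xylem vessel markers summed to 84.7 and 39.6 CPM in wild type against 157 and 95.5 CPM in stk. Taken singly, each of the 6 overlapped between the genotypes. The part of these markers in the UGE1 and UGD values was not tested.

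Genes of the low oxygen response, fixed because SUS1 and SUS4 belong to that response, had a median of -0.68 over 12 tested genes, with 9 negative. LBD41 (AT3G02550) stood at 177 and 140 CPM in wild type against 93.7 and 101 CPM in stk, and ADH1 (AT1G77120), the alcohol dehydrogenase, at 23.8 and 23.5 CPM against 12.9 and 6.83 CPM (edgeR adjusted p = 1 for both). Stk libraries lay below wild-type libraries in 5 of the 12, where 16.6% of all tested genes did so. They lay above in 1 of the 12, where 15.9% of all tested genes did so. The highest log2 fold change of the list was 2.74.

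Seed and green tissue could be carried over in dissection. Of 13 embryo and endosperm markers, 3 had 0 counts in every library, and the list summed to 166 and 3.58 CPM in wild type against 30.8 and 6.17 CPM in stk. In the replicate 1 libraries most of it came from the storage protein genes CRA1, CRU2, CRU3 and SESA1, and in the replicate 2 libraries AGL62, an endosperm gene, was the highest of the list, at 2.20 and 4.03 CPM. The 5 seed coat markers summed to 47.5 and 72.2 CPM in wild type against 60.0 and 101 CPM in stk, with TT16 at 0. The 8 green tissue markers summed to 8436 and 3359 CPM in wild type against 5707 and 6114 CPM in stk. Wild-type replicate 1 was highest for embryo and for green tissue markers, as it was for SUS1 and SUS4, and their part in the SUS values was not tested.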

How the data were processed

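Polyadenylated RNA of 4 funiculus libraries was compared between 2 genotypes of 2 libraries each. The deposited table holds raw read counts for 37051 loci, made by the authors. Per the submitters' processing notes the tools were DESeq2 1.38.3, featureCounts 1.6.3, STAR 2.7.0 and Trimmomatic 0.38, without a word on the step each served. Build, annotation, strand setting and handling of multiply mapped reads were not given in the sources used here. Names and exonic lengths came from the TAIR10.1 gene table, which holds each of the 37051 loci. 1 list entry, GLCAK2 (AT5G14470), was left out. The reference annotates it as a GHMP kinase family protein and does not hold that name. Other entries whose listed name was missing from the reference were kept under the reference's name.

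From these counts, CPM and log2 fold changes were computed with edgeR 4.0.16 in R 4.3.3: TMM scaling, 18092 genes kept by filterByExpr, a model of genotype only and the quasi-likelihood test, with p-values adjusted by Benjamini-Hochberg over all genes tested and called under 0.05. An SE is the log2 fold change over the root of its F statistic. The alternatives were limma-voom (limma 3.58.1), DESeq2 1.42.0, 2 other scalings, 2 other filters, the replicate number as a block, and the fit without each library in turn. The edgeR fit was checked on simulated data with known fold changes. Depth ranged from 4033589 to 12099218 counts, and a floor of 3 counts equals 0.247 CPM in the deepest library and 0.776 CPM in the shallowest. Intervals and floors cover counting error only.

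The members and lists were chosen with earlier results of these data known. All members, the other UGD and SUS genes, STK, the 2 genes of lowest p in each pathway list and the 5 closest profiles to UGE1 (over all tested genes and over the pathway lists) were to be named; other names were chosen after their values were seen. Promoter motifs were not analysed here.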

Additional observations from a re-analysis of the deposited data

How the results depend on the processing

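Calls depended on the tool and the filter. Over all genes, edgeR called 1 gene (1 higher, 0 lower); DESeq2 called 172 (121 and 51), limma-voom 37 (27 and 10), edgeR without the low-count filter 275 (177 and 98), and a minimum mean of 5 CPM left 0 calls in edgeR. With a library left out it called 5 to 198 genes, 4 to 161 higher and 1 to 37 lower. Of the 10 members, UGE1 alone was called, by DESeq2, by limma-voom, without the filter and without wild-type replicate 1 (1 in each case, 0 to 1 over the libraries left out). Of the genes in the other lists, 1 was called by DESeq2, 1 by limma-voom, 10 without the filter, and 0 to 9 with a library left out. The cause was not tested.

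Libraries of the 2 genotypes share replicate numbers in the labels, with no stated shared origin. Across genes, the difference of replicate 2 from replicate 1 correlated at 0.245 between the genotypes. With a replicate block edgeR called 169 genes (122 higher and 47 lower), 1 member (UGE1) and 6 genes of the other lists.

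UGE1, UGD2 and UGD3 were positive and UGE4 negative under all 11 alternatives. SUS1 and SUS4 were negative under 10 of 11, and positive without wild-type replicate 1. UGE2, UGE3 and SUS3 changed sign with the library left out. For UGE3, leaving out a replicate 2 library leaves that genotype at 0 counts. With a library left out, list medians ranged from 0.27 to 1.12 for the other UGD and SUS genes, from -0.29 to 0.67 for UDP-galacturonate, from -0.18 to 0.72 for UDP-rhamnose, from -0.65 to 1.12 for the inositol route, from 0.35 to 1.31 for transporters and from 0.0030 to 3.60 for secondary wall cellulose and xylan. Shares of the SUS family on raw counts put SUS1 level with SUS4 in wild-type replicate 1 (49.8 and 49.4%). Depth limits UGE3, UGE5 and SUS3, which had at most 74 counts in any library.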
